A study of Rattus norvegicus with 10 samples.

Results

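The proteasome is the protease that degrades most ubiquitin-tagged proteins of the cell. Its genes were followed in RNA from plasma exosomes, vesicles shed by cells into the blood. They were chosen by symbol, as all genes named Psm with a letter from a to g and a number. Of 22093 genes measured, 65 met that rule, on 69 of 68842 transcript clusters (the array's unit, which groups the probes of a transcribed region), and a gene with several clusters was represented by the brightest over the 10 arrays. The 65 comprised 48 genes of the proteasome, its activators, its inhibitor and its assembly factors, and 17 other symbols, of which RefSeq lists 12 as pseudogenes. The 10 samples came from male Wistar rats, 5 after remote ischemic conditioning (RIC) and 5 healthy controls, with 1 array per rat. RIC interrupts and restores the blood flow of a distant body part, here in 4 cycles with 5 min of ischemia and 5 min of reperfusion each. The labels carry that text on all 10 samples, and it was read as describing the RIC rats. They give no age, body part or delay before bleeding. From every rat 10 mL of venous blood went into EDTA tubes, and the vesicles were pelleted by ultracentrifugation.

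The particle has a hollow core of stacked alpha and beta rings, whose beta subunits hold the protease sites, and a regulatory cap that recognises ubiquitin, unfolds the substrate and feeds it in. The cap consists of a base with a ring of ATPases and a lid that removes ubiquitin. Interferon-gamma induces 3 replacement beta subunits (Psmb8, Psmb9 and Psmb10) that form the immunoproteasome, together with the activator subunits Psme1 and Psme2. In mammals the constitutive genes share control by the factor NRF1, encoded by Nfe2l1, which binds antioxidant response elements. Proteasome particles and their messenger RNA occur in blood cells, platelets included.

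Promoter sequences of RefSeq, build GRCr8, were available for 43 of the 48 genes. They were searched for letters linked to the 2 kinds of control just named, and 5 are shown as examples. The window searched ran from 250 bases before to 50 bases after the start, on both strands. The antioxidant response core TGACNNNGC was present in 8 of 43 (18.6%), against 12.1% of 33469 promoters. It occurred in Psma3, Psmb2, Psmb5, Psmb6, Psmd1, Psmd3, Psmd9 and Psme4. The interferon-stimulated element, read as a pair of GAAA blocks with 2 free bases between them, was present in 7 of 43 (16.3%), against 3.9% of all promoters. These were Psma4, Psmb3, Psmb8, Psmb10, Psmd7, Psme2 and Psmg4. The letters CCAAT occurred in 21 of 43 (48.8%), against 37.5%. The median number of CG dinucleotides was 17 in the 43 windows and 7 in all. A match describes letters only. The 130 bases before the start follow for Psmb5 (chr15:32047380-32047509, minus strand), Psmb6 (chr10:55737758-55737887, plus strand), Psmb10 (chr19:50743293-50743422, minus strand), Psme2 (chr15:33052752-33052881, minus strand) and Psmd7 (chr19:52411317-52411446, minus strand). Psmb5 and Psmb6 are constitutive sites and Psmb10 and Psme2 interferon-induced genes, each with a match, and they do not stand for their whole class. Psmb7, the other constitutive site, had no antioxidant response core. The interferon-induced Psmb9 and Psme1 had no interferon-stimulated element. Psmd7 is the lid gene with the lowest p. Capitals mark the antioxidant response core in the first and second, the interferon-stimulated element in Psmb10 (present at 2 places) and Psme2, and in Psmd7 a CCAAT followed by the reverse complement of the interferon-stimulated element.
Psmb5: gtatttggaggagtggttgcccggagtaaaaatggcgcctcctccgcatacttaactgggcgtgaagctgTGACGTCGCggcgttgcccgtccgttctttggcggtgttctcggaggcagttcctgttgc
Psmb6: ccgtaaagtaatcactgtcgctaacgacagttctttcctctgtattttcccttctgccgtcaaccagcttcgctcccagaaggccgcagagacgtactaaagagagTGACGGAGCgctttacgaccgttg
Psmb10: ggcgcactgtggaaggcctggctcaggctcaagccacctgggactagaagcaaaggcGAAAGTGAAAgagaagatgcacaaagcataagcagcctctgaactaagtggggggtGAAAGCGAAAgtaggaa
Psme2: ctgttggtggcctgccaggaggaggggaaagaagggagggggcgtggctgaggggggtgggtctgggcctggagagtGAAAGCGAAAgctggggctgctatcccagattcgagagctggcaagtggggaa
Psmd7: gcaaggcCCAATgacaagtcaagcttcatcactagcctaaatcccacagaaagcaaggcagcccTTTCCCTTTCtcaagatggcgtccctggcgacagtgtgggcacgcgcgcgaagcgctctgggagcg

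Values are log2 signal as deposited, on a scale with a ceiling at 19.93 that none of the 65 reached. Differences are RIC minus control, with unadjusted p from limma and Benjamini-Hochberg adjustment over all 68842 clusters. Olfactory and vomeronasal receptor clusters (n = 1446) served as background, with a 95th percentile of 4.38. Of the 48 proteasome genes 45 had a mean above it, as did 8 of the 17 other symbols. The vesicle genes Cd9 and Sdcbp were at the ceiling on all arrays, and all 6 vesicle genes examined exceeded the receptor 95th percentile. So did all 8 measured platelet genes, of which Pf4, Tubb1 and Clec1b were at the ceiling on all arrays. The same held for all 8 measured erythroid genes, with Hba-a1 at the ceiling, and for 10 of 11 leukocyte genes. Over the whole array 1211 clusters were at the ceiling on all arrays. Array medians lay between 4.05 and 4.23. In bulk vesicle RNA, fewer vesicles of a type and less of an RNA per vesicle cannot be told apart.

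No gene of the 65 passed. With limma, 0 of 68842 clusters (0%) had an adjusted p under 0.05, with 7665 clusters at an unadjusted p under 0.05 and a lowest adjusted p of 0.302. The 65 genes had 44 lower and 20 higher means in RIC, with 1 difference of 0, and a median difference of -0.06, against 0.03 over the 67405 clusters that varied. At an unadjusted p under 0.05 there were 7 lower genes (10.8%), against 3.17% of all clusters, and 0 higher ones, against 7.97%. Both counts and their background depended on the scaling. Centred on array medians, 9 genes were lower and 0 higher at that p, against 7.15% and 2.61% of all clusters, and centred on the receptors 9 and 0, against 10.4% and 1.83%. With quantile normalization repeated, 2 were lower and 5 higher (Psma2, Psma6, Psmd13, Psmd14 and Psme2), against 5.01% and 4.83%. With the level trend removed, 4 were lower and 2 higher, against 4.58% and 4.21%. Without control rat 2, 3 genes were lower and 3 higher, against 1926 and 3904 of the 68842 clusters. The background depended on level. Of the 4195 varying clusters averaging 6 to 10, RIC had the lower mean in 77.8%, their median difference was -0.21 and 13.5% were lower at an unadjusted p under 0.05. The 28 proteasome genes in that range had 22 lower (78.6%), a median difference of -0.21 and 4 (14.3%) lower at that p. Share and median of these 28 genes were thus close to those of all clusters of their level.

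**Figure D1:**
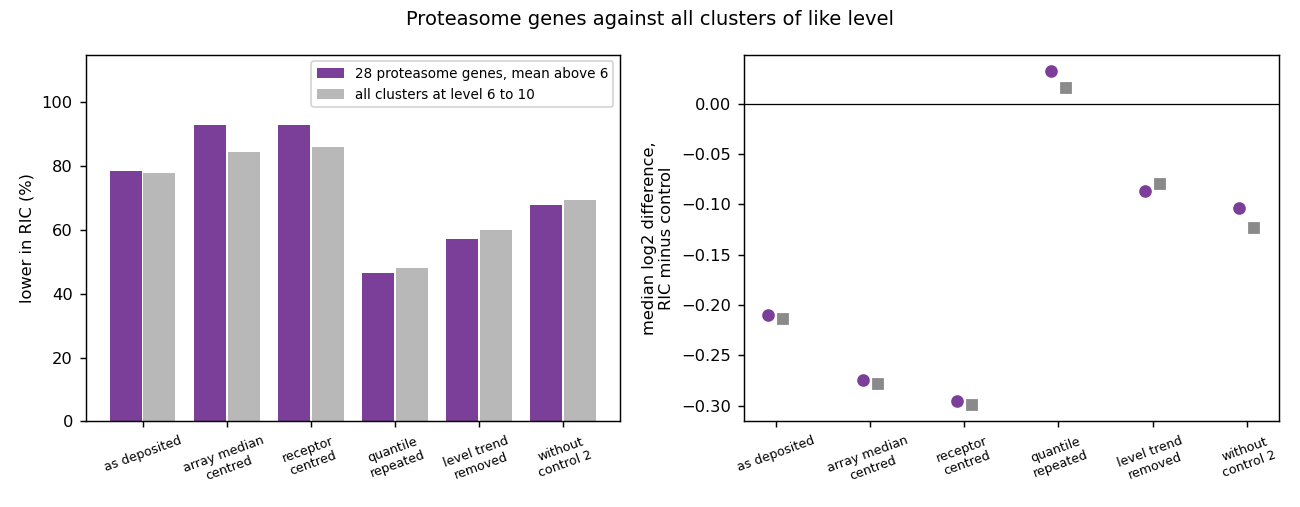
Left, the share of clusters with a lower mean in RIC (percent), and right, the median log2 difference (RIC minus control), for the 28 proteasome genes with a mean above 6 (purple) and all 4195 varying clusters with a mean of 6 to 10 (grey), under 6 settings. As deposited the shares were 78.6% and 77.8%, and after repeated quantile normalization 46.4% and 48%.

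The median of the 28 genes minus that of the clusters of their level was 0.004 as deposited and between -0.051 (without RIC rat 1) and 0.053 (without control rat 3) under the alternatives run. Centring arrays shifts both medians alike and leaves that gap as it is. With quantile normalization repeated, 13 of the 28 genes (46.4%) were lower in RIC, against 48% of the clusters of their level, and the medians were 0.03 and 0.02. With each array's level-dependent trend removed, 16 of 28 (57.1%) were lower against 60.0%, with medians of -0.09 and -0.08. Centring each array on its median gave 26 of 28 (92.9%) against 84.4%, with medians of -0.27 and -0.28, and centring on the receptors 92.9% against 86.0%. Over all 48 genes the count of lower means was 34 as deposited, 40 with arrays centred on their medians, 41 centred on the receptors, 23 with the trend removed and 19 after repeated quantile normalization. The direction of the 48 together thus depended on the scaling.

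**Figure D2:**
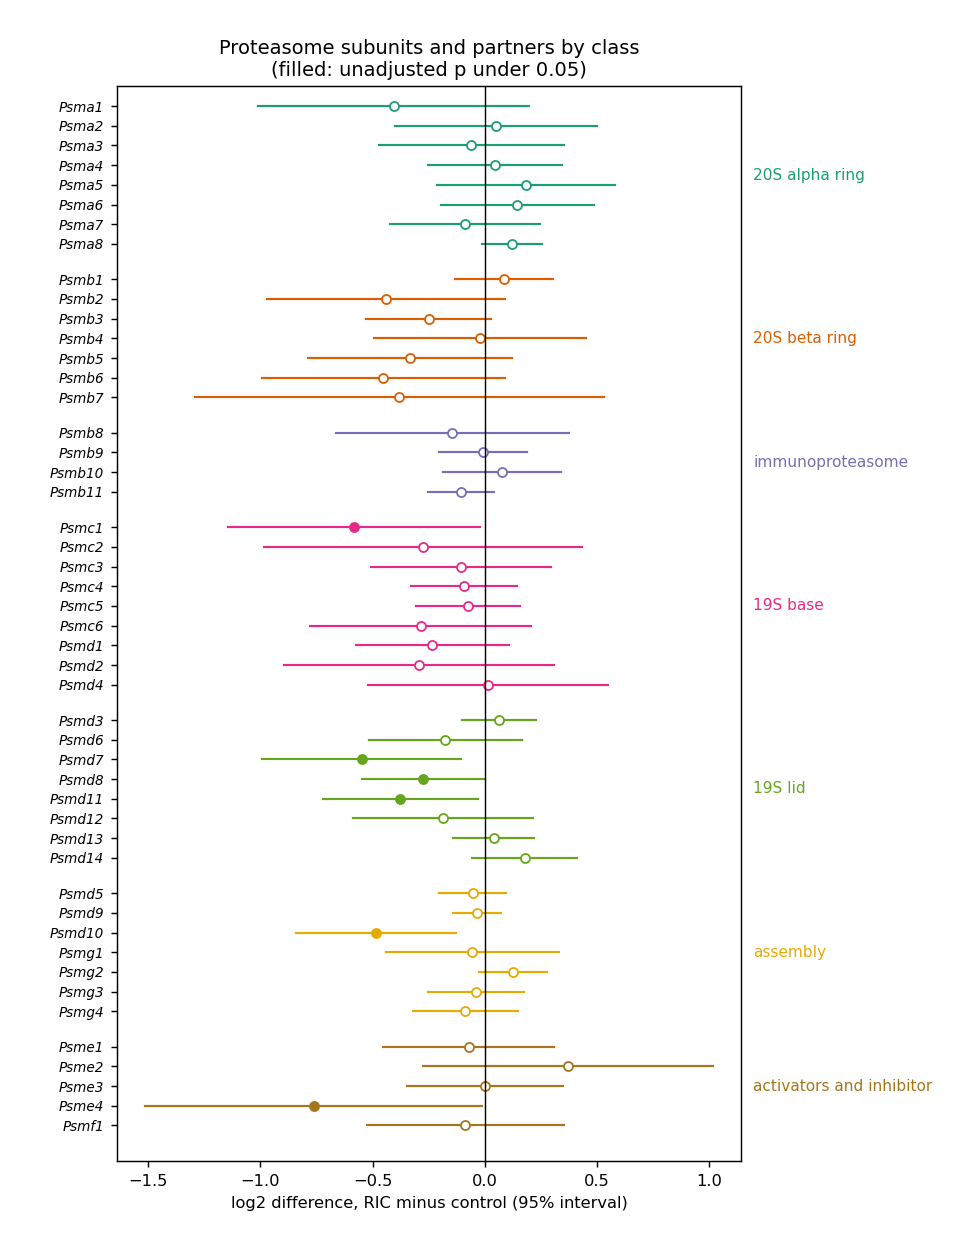
Log2 difference, RIC minus control, of the 48 proteasome genes by class, with 95% intervals from limma. Filled points have an unadjusted p under 0.05 and number 6, all below 0. None passed after adjustment.

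Alpha ring genes, which form the outer rings of the core and its gate, showed no common direction. Of 8, 3 were lower and 5 higher in RIC, with a median difference of 0.05 and 0 at an unadjusted p under 0.05. Psma8, the subunit of the testis form, had the lowest p of the class (limma adjusted p = 0.474). It measured 4.05, 4.01, 3.88, 4.07 and 4.14 in RIC rats 1 to 5, against 4.02, 3.87, 3.81, 3.99 and 3.85 in control rats 1 to 5. All 10 values lay under the receptor 95th percentile. Psma1 measured 6.62, 6.49, 5.65, 6.44 and 5.95 in RIC, against 6.55, 7.40, 6.64, 6.54 and 6.05 in control, with a difference of -0.41 (SE 0.27, adjusted p = 0.571). The highest value came from control rat 2 and the lowest from RIC rat 3, and the other 8 lay within 5.95 to 6.64. Psma2, Psma3, Psma4, Psma5, Psma6 and Psma7 differed by -0.09 to 0.18.

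Beta ring genes encode the constitutive protease sites and their neighbours, and 6 of 7 had lower means in RIC. Their median difference was -0.33, with 0 of 7 at an unadjusted p under 0.05. Psmb6 (caspase-like site) averaged 6.49 ± 0.39 in RIC and 6.94 ± 0.42 in control (SD, n = 5 each), a difference of -0.45 with a 95% interval of -0.99 to 0.09. Psmb7 (trypsin-like site) differed by -0.38 with an interval of -1.29 to 0.53, and Psmb5 (chymotrypsin-like site) by -0.33 with an interval of -0.79 to 0.12. All 3 intervals included 0. Psmb3, a non-catalytic subunit with the lowest p of the class (limma adjusted p = 0.479), measured 7.84, 7.84, 8.01, 7.84 and 7.63 in RIC, against 7.81, 8.48, 8.17, 8.03 and 7.92 in control. Its groups overlapped, since control rat 1 lay below 4 of the RIC rats. Psmb1, the only member on the other side, measured 4.75, 4.69, 4.66, 4.63 and 4.63 in RIC, against 4.36, 4.88, 4.73, 4.56 and 4.40 in control. Its RIC values spanned less than its control values, and the difference was 0.09 (adjusted p = 0.744). Psmb2 differed by -0.44 and Psmb4 by -0.02. The class median was negative under every scaling run, and closest to 0 with quantile normalization repeated (-0.10). All genes of the class but Psmb1 averaged 6 to 10. Of all varying clusters of that level 77.8% were lower as deposited, with a median difference of -0.21. Their median was also negative with arrays centred on medians (-0.28) or on receptors (-0.30), and with the level trend removed (-0.08). With quantile normalization repeated it was 0.015. Whether the class differed from clusters of its level was not tested.

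The immunoproteasome genes were near 0, with 3 of 4 lower in RIC, a median difference of -0.06 and 0 at an unadjusted p under 0.05. Psmb8, the counterpart of Psmb5, measured 7.59, 6.94, 6.74, 7.21 and 7.12 in RIC, against 6.86, 7.88, 7.57, 7.10 and 6.91 in control. Its difference was -0.14 (95% interval -0.66 to 0.37), and its second, dimmer cluster had 6.48 ± 0.16 in RIC and 6.28 ± 0.35 in control, a difference of 0.20. The 2 clusters of the gene thus had opposite signs, with groups that overlapped in both. Psmb9, the counterpart of Psmb6, measured 5.32, 5.35, 5.32, 5.30 and 5.33 in RIC, against 5.32, 5.45, 5.55, 5.32 and 5.02 in control. The RIC rats lay within 0.05 of each other while the control rats spread on both sides of them, and the difference was -0.01 (95% interval -0.20 to 0.19).

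Psmb10, the counterpart of Psmb7, measured 5.53, 5.81, 5.76, 5.59 and 5.83 in RIC, against 5.43, 5.62, 6.03, 5.47 and 5.58 in control. Its mean was higher in RIC by 0.08 (adjusted p = 0.818), although control rat 3 had the highest value. Psmb11, the subunit of thymic epithelium, measured 5.34, 5.34, 5.34, 5.34 and 5.24 in RIC, against 5.65, 5.32, 5.34, 5.34 and 5.48 in control. The same value of 5.34 recurred on 6 arrays, and the difference was -0.11 (adjusted p = 0.546). Whether the immunoproteasome subunits differed from their counterparts was examined as the log2 ratio of each pair within an array, which removes a shift common to all clusters of an array but not one that depends on level. Clusters with a mean from the receptor 95th percentile to 6, where Psmb9 and Psmb10 lie, had a median difference of -0.01, against -0.21 for those of 6 to 10, where Psmb6 and Psmb7 lie. The part of that gap in the ratios was not tested. The ratio of Psmb8 to Psmb5 was higher in RIC by 0.19, that of Psmb9 to Psmb6 by 0.44 and that of Psmb10 to Psmb7 by 0.46. Two-sided exact permutation tests over 252 assignments gave p = 0.310, 0.103 and 0.254, each 0.310 after adjustment over the 3 pairs. None of the 3 tests gave a p under 0.05, and the smallest p such a test can give is 0.00794. The Psmb8 ratio used its brighter cluster (difference -0.14). With the dimmer one (0.20) the ratio would have shifted further up in RIC, and that choice was not tested.

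**Figure D3:**
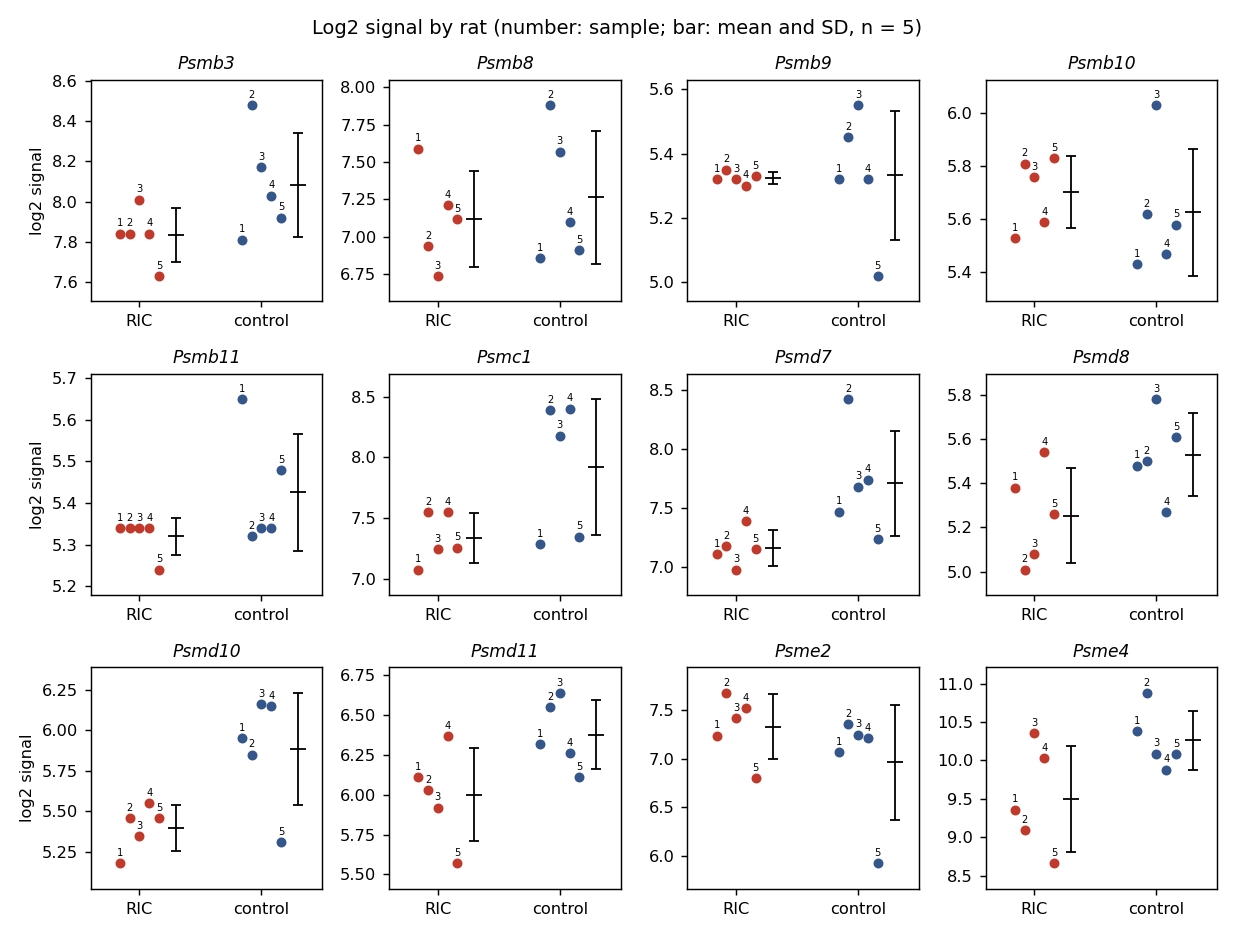
Log2 signal of 12 proteasome genes in each rat, RIC (red) left of control (blue). Numbers give the rat, and bars the mean and SD (n = 5 each). The groups overlap in all 12 panels, Psmd10 through control rat 5 at 5.31 among RIC values of 5.18 to 5.55.

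In the base of the cap 8 of 9 genes had lower means in RIC, with a median difference of -0.23. Of clusters averaging 6 to 10, where most base genes lie, 77.8% had lower means. At an unadjusted p under 0.05, 13.5% of those and 3.17% of all clusters were lower. In the base 1 gene (11.1%) was lower at that p. That gene was Psmc1, an ATPase of the unfolding ring, at 7.08, 7.55, 7.25, 7.55 and 7.26 in RIC, against 7.29, 8.39, 8.18, 8.40 and 7.35 in control. Control rats 2, 3 and 4 lay above all RIC rats, while control rats 1 and 5 lay among them. The difference was -0.58 (SE 0.25, adjusted p = 0.439). In 8 of 22 alternatives its unadjusted p was above 0.05, among them the removal of control rat 2, 3 or 4 (-0.47, -0.52 and -0.46) or of RIC rat 1, 3 or 5 (-0.52, -0.56 and -0.56). The other ATPases, Psmc2, Psmc3, Psmc4, Psmc5 and Psmc6, differed by -0.29 to -0.07, and the scaffold subunits Psmd1 and Psmd2 by -0.23 and -0.29. Psmd4, a ubiquitin receptor, measured 6.37, 6.05, 6.0, 6.53 and 5.59 in RIC, against 5.68, 6.66, 6.43, 5.96 and 5.74 in control, and its means were 6.11 and 6.09. The base median was -0.08 without control rat 2 and 0.02 with quantile normalization repeated.

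Among lid genes 5 of 8 were lower and 3 higher in RIC, with a median difference of -0.18. At an unadjusted p under 0.05, 3 (37.5%) were lower, against 3.17% of all clusters. That share was 13.5% of clusters averaging 6 to 10, and 5.73% of those from the receptor 95th percentile to 6. The lid median was 0.007 with quantile normalization repeated and -0.06 with the level trend removed. Psmd7, the partner of the lid's deubiquitinase, measured 7.11, 7.18, 6.98, 7.39 and 7.15 in RIC, against 7.47, 8.42, 7.68, 7.74 and 7.24 in control. All controls but rat 5 lay above the highest RIC rat. The difference was -0.55 (SE 0.20, adjusted p = 0.402), and it had an unadjusted p under 0.05 in all 22 alternatives, with values from -0.67 to -0.28. Psmd11, which clamps the lid to the core, measured 6.11, 6.03, 5.92, 6.37 and 5.57 in RIC, against 6.32, 6.55, 6.64, 6.26 and 6.11 in control (difference -0.38, adjusted p = 0.426). RIC rat 4 lay above 3 controls and the remaining RIC rats at or below all of them. In 8 of 22 alternatives the unadjusted p of Psmd11 was above 0.05, among them the removal of control rat 1, 2 or 3 or of RIC rat 2, 3 or 5, with values of -0.39 to -0.27. Psmd8, a lid subunit, measured 5.38, 5.01, 5.08, 5.54 and 5.26 in RIC, against 5.48, 5.5, 5.78, 5.27 and 5.61 in control (difference -0.27, adjusted p = 0.448). Its groups overlapped, and 14 of 22 alternatives gave an unadjusted p above 0.05.

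Psmd14, the deubiquitinase itself, lay on the other side of Psmd7. It measured 6.07, 6.10, 5.83, 6.10 and 6.11 in RIC, against 5.75, 6.22, 5.89, 5.76 and 5.70 in control. In RIC 4 rats stood at 6.07 to 6.11, above 4 of the controls, and the difference was 0.18 (95% interval -0.05 to 0.41, adjusted p = 0.529). Its unadjusted p was under 0.05 in 4 of 22 alternatives, at 0.33 with quantile normalization repeated, 0.28 with the level trend removed, 0.27 without control rat 2 and 0.26 without control rats 1 and 2. The lowest adjusted p of these was 0.366. Of the remaining lid genes, Psmd3 and Psmd13 differed by 0.06 and 0.04, and Psmd6 and Psmd12 by -0.18 and -0.19.

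Assembly genes gave a median difference of -0.05, with 6 of 7 lower. At an unadjusted p under 0.05, 3.17% of all clusters were lower, and 5.73% of those averaging from the receptor 95th percentile to 6. Of the assembly genes 1 (14.3%) was lower at that p. That gene was Psmd10, or gankyrin, a chaperone of the base. It measured 5.18, 5.46, 5.35, 5.55 and 5.46 in RIC, against 5.95, 5.85, 6.16, 6.15 and 5.31 in control. Controls 1 to 4 lay above every RIC rat, and control 5 below 4 of them. The difference was -0.48 (SE 0.16, adjusted p = 0.383). The second Psmd10 cluster measured 4.08 ± 0.14 in RIC and 4.47 ± 0.28 in control (SD, n = 5 each), with all 5 RIC values under the receptor 95th percentile, so no size is given for its difference. The other base chaperones, Psmd5 and Psmd9, differed by -0.05 and -0.03. Of the chaperones that build the core, Psmg2 measured 4.63, 4.51, 4.41, 4.34 and 4.51 in RIC, against 4.33, 4.40, 4.49, 4.20 and 4.35 in control (difference 0.13, adjusted p = 0.499). Psmg1, Psmg3 and Psmg4 differed by -0.09 to -0.04, with Psmg3 and Psmg4 under the receptor 95th percentile.

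Activators and the inhibitor differed among themselves. Psme4 encodes a large nuclear activator that caps the core. It measured 9.36, 9.09, 10.36, 10.03 and 8.66 in RIC, against 10.38, 10.88, 10.09, 9.88 and 10.08 in control. RIC rats 1, 2 and 5 lay below all controls, and RIC rats 3 and 4 among them. The difference of -0.76 (SE 0.33, adjusted p = 0.446) was the most negative of the 65, but 13 of 22 alternatives gave an unadjusted p above 0.05. Psme2, an interferon-induced activator subunit, had the most positive difference, 0.37 (adjusted p = 0.628). It measured 7.24, 7.68, 7.42, 7.52 and 6.80 in RIC, against 7.07, 7.36, 7.25, 7.21 and 5.92 in control. Control rat 5 stood far below the other controls, which lay within 7.07 to 7.36. Without it the difference was 0.11, and 6 of the 65 genes had a more positive one, the highest being 0.32 for Psmb6-ps2.

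The Psme2 value depended on the cluster. The number in a cluster's ID equalled the RefSeq chromosome of its gene for 97.4% of the 22069 clusters with a RefSeq chromosome and for 64 of the 65 that stood for a proteasome gene. The exception was Psme2, whose brighter cluster carries the number 1 while RefSeq places the gene on chromosome 15 and a pseudogene of it, Psme2-ps3, on chromosome 1. The cluster numbered 15 measured 6.44 ± 0.13 in RIC and 6.54 ± 0.36 in control (SD, n = 5 each), a difference of -0.11. Which transcript the brighter cluster measures was not tested. Psme1, the partner of Psme2, differed by -0.07, the nuclear activator Psme3 by 0.00 and the inhibitor Psmf1 by -0.09.

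The 17 other symbols included the gene with the lowest p of the 65. Psmb3-ps7, a pseudogene of Psmb3 on the X chromosome, measured 6.68, 6.49, 6.56, 6.80 and 6.43 in RIC, against 7.12, 7.0, 6.92, 7.0 and 6.95 in control. All RIC rats lay below all controls, which was so for 1 of the 65 genes in this direction and for 0.471% of all clusters, and for 0 in the other direction, against 1.27% of all clusters. The difference was -0.41 (SE 0.07, adjusted p = 0.313). Probes of a pseudogene can bind RNA of its parent, so the signal is not assigned to either, and Psmb3 itself had overlapping groups. Of the other 16, 9 were lower and 7 higher in RIC, with 0 at an unadjusted p under 0.05. They comprised the pseudogenes or copies Psma2-ps2, Psma6-ps1, Psma6-ps4, Psmb3l1, Psmb3l2, Psmb4-ps1, Psmb6-ps2, Psmc6-ps2, Psmd8-ps1, Psmd12-ps1, Psme1-ps1, Psme1l1, Psme3-ps3 and Psmg4l1, with differences of -0.13 to 0.27. Psmc3ip, a recombination factor of meiosis, and Psme3ip1, a binding partner of Psme3, are no proteasome subunits and differed by 0.07 and -0.01.

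**Figure D4:**
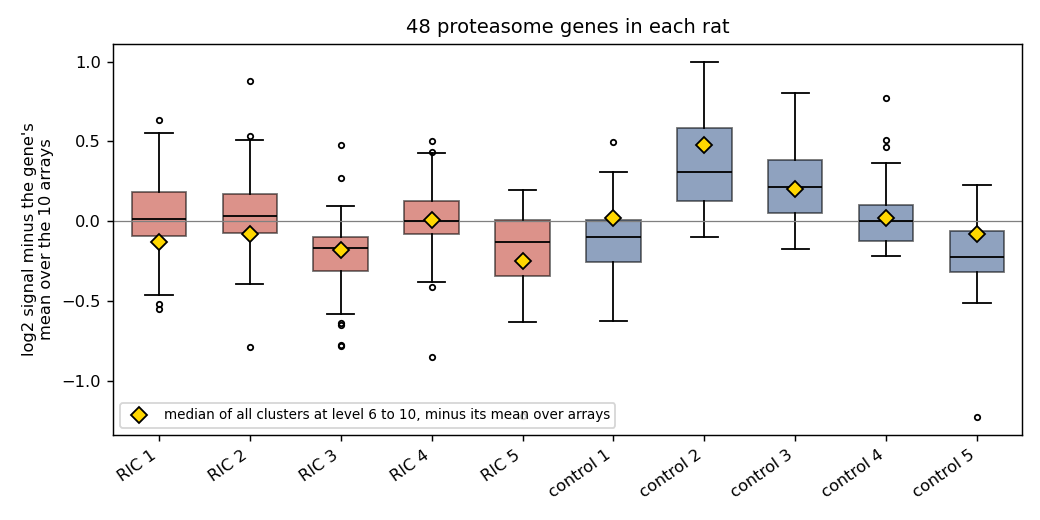
Log2 signal of the 48 proteasome genes in each rat, minus each gene's mean over the 10 arrays (box, quartiles and median, whiskers to 1.5 box lengths, circles beyond). Diamonds show the median of all clusters with a mean of 6 to 10, less its mean over arrays. Control rats 2 and 3 stand highest in the boxes, with medians of 0.31 and 0.22.

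Many of the genes deviated the same way within a rat, most clearly in control rats 2, 3 and 5 and RIC rat 3. RIC rats 1, 2 and 4 and control rat 4 stood near 0, with 24, 29, 25 and 24 of 48 genes above their own mean. In control rat 2, 43 of 48 genes exceeded their own 10-array mean, with a median deviation of 0.31, and 24 of 48 had their highest value there. Control rat 3 followed with 40 of 48 and 0.22. Control rat 5 stood at the other end with 6 of 48 and -0.23, below RIC rat 3 with 7 of 48 and -0.17. The lowest and the highest rat were thus both controls. In clusters with a mean of 6 to 10 the array median was also highest in control rat 2, at 7.56, against 6.83 to 7.28 in the 9 other rats.

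After each group's mean was removed, the correlation between pairs of the 28 proteasome genes with a mean above 6 had a median of 0.61 over the 10 arrays, against 0.16 between pairs of the 4195 clusters of that level. This is a description, since the pairs share arrays and array-wide shifts. By class the median was 0.65 in the beta ring, 0.63 in the base, 0.62 in the alpha ring and 0.47 in the lid. It was 0.16 among assembly genes, which averaged 3.92 to 5.70. In the immunoproteasome class of 4, which includes the thymic Psmb11, it was -0.12, with pairs from -0.58 to 0.57. The 3 positive of its 6 pairs were those among Psmb8, Psmb9 and Psmb10. The part of signal level in these class values was not tested. All 36 pairs of base genes and all 21 pairs of beta ring genes correlated positively. Without control rat 2, 29 of 48 genes had lower means in RIC and the median difference was -0.03. The count was also 29 without control rat 3 (median -0.07) and without RIC rat 3 (median -0.03).

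Other genes of the pathway, from a list of 31 symbols of which 23 were measured, had lower means in RIC in 18 cases and higher ones in 5. Their median difference was -0.13, and none passed after adjustment. At an unadjusted p under 0.05 there were 2, both lower, against 3.17% of all clusters lower at that p. All 23 averaged above the receptor 95th percentile, where the background was higher. Of clusters averaging 6 to 10, 77.8% had lower means and 13.5% were lower at that p. From the receptor 95th percentile to 6, the shares were 53.3% and 5.73%. Usp14, a deubiquitinase that docks on the base, averaged 6.07 ± 0.17 in RIC and 6.46 ± 0.25 in control (SD, n = 5 each, limma adjusted p = 0.386). Zfand5, a ubiquitin-binding activator of the proteasome, averaged 5.26 ± 0.08 in RIC and 5.41 ± 0.11 in control (limma adjusted p = 0.419). Nfe2l1, the regulator named above, averaged 4.69 ± 0.05 in RIC and 4.77 ± 0.13 in control, and Pomp, the maturation factor of the core, 8.49 ± 0.53 and 8.34 ± 0.92. On the interferon side 6 of 8 varying genes had higher means in RIC, their median difference was 0.07, and none passed after adjustment. The receptor clusters used as background had a median difference of 0.09, and 23.4% of them were lower in RIC. Of the 9 measured interferon genes, however, 6 averaged above the receptor 95th percentile. Irf7, Mx1 and Tapbp averaged 6 to 10, where 77.8% of clusters were lower and the median difference was -0.21. Whether the list differed from clusters of its own levels was not tested. At an unadjusted p under 0.05 there were 2, both higher (Irf7 and Tap1), against 7.97% of all clusters higher at that p. The transcription factor Irf7 averaged 7.28 ± 0.41 in RIC and 6.42 ± 0.49 in control (limma adjusted p = 0.378). The peptide transporter gene Tap1 averaged 4.34 ± 0.04 in RIC and 4.27 ± 0.05 in control (limma adjusted p = 0.435), both under the receptor 95th percentile.

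Vesicle genes and markers of possible source cells are given beside these values. None of them passed after adjustment (limma, lowest adjusted p = 0.356). All 4 vesicle genes that varied had lower means in RIC, by a median of -0.39. The summed log2 level over 6 vesicle genes was 66.1 to 67.5 in RIC and 67.0 to 69.6 in control. Of clusters averaging 6 to 10, where Cd63, Tsg101 and Pdcd6ip lie, 77.8% were lower, with a median difference of -0.21. Of 5 platelet genes that varied 4 were lower, with a median of -0.28 and a sum over 8 genes of 141.3 to 147.6 in RIC and 144.4 to 147.7 in control. Without RIC rat 5 the platelet median was -0.02, with 3 lower and 2 higher. All 6 erythroid genes that varied were higher, with a median of 0.58 and a sum over 8 genes of 72.0 to 84.4 in RIC and 70.8 to 74.3 in control. RIC rat 4 had the highest sum, and without it the median was 0.25, with 1 lower and 5 higher. Leukocyte genes were higher in 7 of 11 (median 0.05, sums of 57.7 to 63.3 in RIC and 57.7 to 61.5 in control), and their median was -0.01 without RIC rat 4 and -0.015 without control rat 5. Liver genes were higher in 4 of 5 (median 0.09, sums of 22.0 to 23.2 in RIC and 21.0 to 22.3 in control). Only 2 of the 5 averaged above the receptor 95th percentile, and the receptor clusters themselves had a median difference of 0.09. The part of the vesicle and marker genes in the proteasome values was not tested.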

How the data were processed

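Plasma exosome RNA of 10 rats was measured on Affymetrix arrays. The authors deposited 1 table of log2 values, and the submitters' processing notes name Affymetrix Expression Console as the tool. Its algorithm, normalization and genome build were not given in the sources used here, so the log2 scale was read from the deposited values, which run from 2.71 to 19.93 and are not centred by gene, and any centring of arrays is unknown. Groups came from the titles. GEO's platform annotation supplied symbols, and RefSeq (GRCr8) chromosomes and promoters.

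RIC and control were compared with lmFit and eBayes of limma 3.58.1 (R 4.3.3) over all 68842 clusters, with no covariate or filter and a threshold of 0.05. The step was tested on simulated data. The p-values reflect only how these rats varied, and 5 arrays a group limit the precision. Pairs of subunits were compared by exact permutation with Python 3.11.15. Alternatives covered scaling, variance model, array weights, filters, the choice of cluster, a replicate block and left-out samples. Genes named with all values were the immunoproteasome class, those with an unadjusted p under 0.05, and in each class the lowest p and the largest difference the other way. Members and lists were chosen with earlier results of these data known, and the pair ratios, the RefSeq-numbered cluster, the counts by direction under each scaling and the marker lists without single rats were added after seeing them. Protein sequences were not analysed here. Same-numbered samples correlated at -0.05 to 0.18 after group means were removed, and only number 2 had its own number as best match. These values cannot show whether same-numbered rats shared a batch, and the labels name none.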

Additional observations from a re-analysis of the deposited data

Results flagged for a closer look

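In groups of 5, a rat was marked where its gap to the nearest other rat exceeded 0.71 of the group's range, which chance does in about 5% of groups. Of 130 groups of single genes 11 were marked, and of the class medians 1. RIC rat 3 was low for the core subunit Psmb4 (5.46), for Psmd13 (6.12) and for Psmd14 (5.83), and high for the copy Psmg4l1 (4.04). RIC rat 5 was low for Psmb11 (5.24, the other 4 at 5.34) and high for Psmd5 (4.67). Control rat 2 was high for Psmc6 (7.45). Control rat 5 was low for Psme2 (5.92) and for the median of activators and inhibitor (6.04), and high for Psmg4l1 (4.49). Control rat 4 was high for Psma6-ps1 (4.03) and control rat 1 for Psmd12-ps1 (4.35).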

How the results depend on the processing

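No cluster and no proteasome gene had an adjusted p under 0.05 in any of the 21 refits run. With quantile normalization repeated, 27 of the 65 genes and 19 of the 48 were lower in RIC, and the immunoproteasome median was 0.10. Genes at an unadjusted p under 0.05 numbered 4 to 8 when 1 rat was left out (4 without RIC rat 5). With the replicate block they numbered 8, and the adjusted calls stayed at 0. Of all 68842 clusters, 5830 (without control rat 2) to 8101 (without control rat 4) had such a p with 1 rat left out. With the block it was 7599. The labels do not describe same-numbered rats as pairs. Signs turned for Psmd4 (-0.05 centred on array medians, -0.071 on receptors), Psmb10 (-0.007 centred on receptors), Psmb3 (0.043), Psmb8 (0.13) and Psmb9 (0.073) with quantile normalization repeated, Psmb8 (0.003) and Psmb9 (0.049) with the level trend removed, Psmb9 without both control rats 1 and 2 (0.027), Psmb8 with its clusters averaged (0.026) and Psme2 with the cluster numbered by RefSeq (-0.11). With 1 rat left out, Psmd4 ranged from -0.092 to 0.156, Psmb8 from -0.26 to 0.01 and Psmb9 from -0.086 to 0.046. The cause was not tested. Pair ratios stayed above 0 in all 16 alternatives run on each, with exact permutation p from 0.0556 to 0.603. None of these used the dimmer Psmb8 cluster alone. Psmd10 had an unadjusted p above 0.05 only without both control rats 1 and 2, and Psmb3-ps7 only with quantile normalization repeated. Signal near the receptor background limits what Psma8, Psmg3 and Psmg4 can show.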
